A study of Mus musculus with 9 samples.

Results

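The genes described here are 27 genes of cholesterol synthesis, sterol sensing and sterol movement, taken from the 30860 genes measured on each array by matching a fixed list of symbols, with 1 probe cluster per gene. All 27 were found. The study treated brown fat cells of the C57BL/6 mouse strain for 8 h with AM73 or AM80, which its title presents as chemical activators of PGC-1α, or with the solvent DMSO as the control. Each compound was given at 10 µM, and each of the 3 groups has 3 Affymetrix whole-transcript arrays, 9 in all, which the labels call technical replicates. The p-values below therefore measure only the spread between these arrays, and the small number of arrays limits their precision. Each array measured RNA from a whole culture, so fewer cells of a type and less RNA per cell cannot be told apart.

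Cholesterol is made from acetyl-CoA through mevalonate, then squalene and lanosterol, and then a series of sterol intermediates. The transcription factor SREBP-2 switches on most genes of this route when sterols in the endoplasmic reticulum are low. SCAP escorts SREBP-2 to the Golgi for cleavage, the INSIG proteins hold SCAP back when sterols are plentiful, and the oxysterol receptors LXR switch on sterol export.

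Values are log2 levels as the authors made them, so a difference of 1 is a doubling, and levels are compared only between arrays for the same gene. A gene is said to have risen or fallen only where its adjusted p was under 0.05 in limma's moderated test, with Benjamini-Hochberg adjustment over all 30860 genes and all 9 arrays in 1 fit. No member's probes are annotated as cross-hybridising, and 26 of the 27 members have a single cluster. The median of 12 brown adipocyte markers lay between 7.27 and 7.81 on the 9 arrays, with Fabp4, a fatty acid carrier of fat cells, near the top of the scale. Dio2, the deiodinase of brown fat, had group means of 2.13, 2.22 and 2.31 with DMSO, AM73 and AM80, near the array medians of the antigenomic background probes, which ranged from 2.07 to 2.32. With AM80 2 of the 12 rose against DMSO, Ucp1 and Cox7a1, and 2 fell, Pparg by 0.91 and Ppargc1a, the gene of PGC-1α, by 1.66 (limma's adjusted p = 0.00497 and 0.00237). Array medians of the markers were 4.42 to 5.11 for preadipocytes and fibroblasts (8 genes), 1.97 to 2.61 for macrophages (6), 2.25 to 2.5 for endothelium (5), 2.89 to 3.26 for skeletal muscle (5) and 2.17 to 2.38 for hepatocytes (3 measured). Of these other cell types' markers, the muscle actin Acta1 rose with AM80 by 0.90 ± 0.11 (limma's adjusted p = 0.00246, SE, n = 3 a group) and no other passed the test in either compound's comparison with DMSO.

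The AM80 arrays differed from the others in ways that no label explains. The poly-A spike-in RNAs, which enter the labelling reaction with the sample, were brighter on the AM80 arrays (median 5.50 ± 0.33) than on the DMSO arrays (4.66 ± 0.16) or the AM73 arrays (4.37 ± 0.30, SD, n = 3). With the arrays scaled to these controls the difference of the median gene was −0.80 between AM80 and DMSO, −1.05 between AM80 and AM73, and 0.26 between AM73 and DMSO. Rises and falls below are thus relative to most other genes of an array, and each rise of a member with AM80 became a lower value under that scaling. So scaled, 78.5% of all genes were called between AM80 and DMSO and 91.3% between AM80 and AM73, nearly all as lower. Of the members 0 were called higher and 15 lower against DMSO, and 0 higher and 18 lower between the compounds. Below, lower under poly-A scaling means a difference under 0 and not a call. The 7 rises against DMSO were not called lower (limma's adjusted p from 0.119 for Npc2 to 0.721 for Tm7sf2). Of the 11 members higher than with AM73, only Fdft1 (0.0175) and Npc2 (0.00919) were. The names of the arrays end in the number 5 or 7, which no label explains. The number 5 belongs to all 3 AM80 arrays and to replicate 2 of DMSO and of AM73, and values with this number as a term are given beside the results. DMSO replicate 3 differed from the mean of DMSO replicates 1 and 2 in the direction of the AM80 difference for 20 of the 27 members. The share of all genes that did so is not given, so this count is not a result about the members. The part of these array differences in the results was not tested.

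With AM80 cholesterol genes moved in both directions, in the mevalonate steps, the steps after lanosterol and the movement genes alike, and with AM73 none passed the test. Against DMSO, 7 members rose with AM80 (Acat2, Fdps, Tm7sf2, Ebp, Dhcr7, Srebf2 and Npc2) and 5 fell (Hmgcs1, Idi1, Msmo1, Sc5d and Abca1). These 12 are 44.4% of the members, while 13.9% of all genes were called. Under poly-A scaling the 7 had differences below 0 that were not called. The 5 falls stayed falls, which was fixed beforehand, as that scaling lowered every gene's difference from DMSO by the same amount. The 7 rises are set beside 6.9% of all genes, and the 5 falls beside 7.04%. The members are brighter than most genes, and among the 18508 genes above the 40th percentile of mean level 26.7% were called, beside 14 of the 27 members (51.9%). The median difference of the 27 members was 0.14, beside 0.04 for all genes, and the single differences ran from −1.48 to 0.74. The falls were the larger changes, between 1.95-fold and 2.78-fold, while the rises lay between 1.30-fold and 1.66-fold. All AM80 arrays lay above all DMSO arrays for 10 members and below them for 9, and such non-overlap was found for 25.5% of all genes, 14.9% above and 10.6% below.

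Between the compounds, at the same dose and time, 19 members differed, with 11 higher and 8 lower in AM80 than in AM73 cells. Under poly-A scaling the 11 had differences below 0, of which only those of Fdft1 and Npc2 were called. The 19 are 70.4% of the members, beside 19.1% of all genes (9.92% higher and 9.22% lower). Among genes above the 40th percentile of mean level, 22 of 27 members (81.5%) were called beside 34.9%. The 19 include 11 of the 12 members called against DMSO, all in the same direction, and the 12th was Dhcr7. Both comparisons use the same AM80 arrays. Centring each array on its median gave 7 higher and 10 lower between the compounds, beside 17.6% of all genes called. Against DMSO it gave 5 higher and 5 lower, beside 12.9%. The AM80 and AM73 arrays did not overlap for 24 members, 13 above and 11 below, beside 31.5% of all genes, 18.9% above and 12.7% below. The F-test over the 3 groups called 17 of the 27 members, beside 16.9% of all genes.

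**Figure D1:**
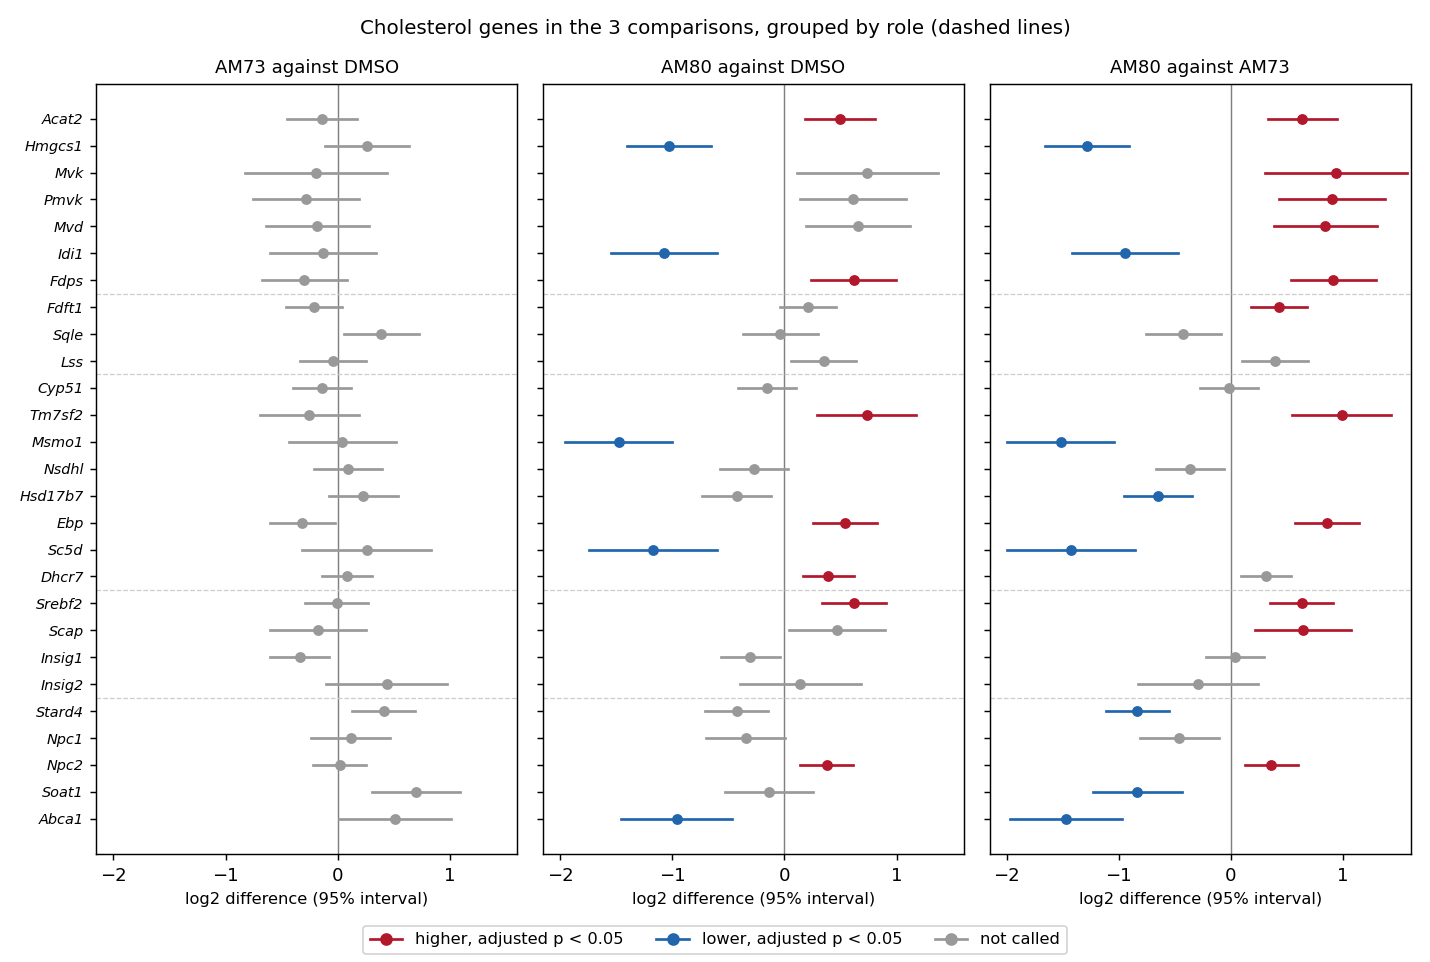
Log2 differences of the 27 members in the 3 comparisons, with 95% intervals from limma's fit over 9 arrays; red and blue points have an adjusted p under 0.05 over all genes. Against DMSO, AM80 has 7 red points to the right and 5 blue points to the left, and the AM73 panel has only grey points. Under poly-A scaling the 7 were below 0 and not called.

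Promoter windows were read for letters shared by members that fell and members that rose. RefSeq promoters of build GRCm38.p6, 250 bases before to 50 after the annotated start, were on hand for 22 of the 27 members in 28 windows. Hmgcs1 and Msmo1 are shown because they had the smallest adjusted p among the falls, and Srebf2 and Ebp because they had the smallest adjusted p among the rises that were lower under poly-A scaling. Capitals mark the sterol regulatory element, searched as TCACNCCAC, and the CCAAT box bound by NF-Y, each on either strand, so that a CCAAT box on the opposite strand reads ATTGG. The Hmgcs1 window is chr13:119690101-119690400 (plus strand), Msmo1 is chr8:64733529-64733828 (minus), Srebf2 is chr15:82147019-82147318 (plus) and Ebp is chrX:8193463-8193762 (minus), each printed 5′ to 3′ along its gene.
Hmgcs1: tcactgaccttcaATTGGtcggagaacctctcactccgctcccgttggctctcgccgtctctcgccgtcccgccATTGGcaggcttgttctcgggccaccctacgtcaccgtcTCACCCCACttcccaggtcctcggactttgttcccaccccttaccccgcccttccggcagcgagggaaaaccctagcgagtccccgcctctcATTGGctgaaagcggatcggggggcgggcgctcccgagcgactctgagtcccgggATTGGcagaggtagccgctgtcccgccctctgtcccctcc
Msmo1: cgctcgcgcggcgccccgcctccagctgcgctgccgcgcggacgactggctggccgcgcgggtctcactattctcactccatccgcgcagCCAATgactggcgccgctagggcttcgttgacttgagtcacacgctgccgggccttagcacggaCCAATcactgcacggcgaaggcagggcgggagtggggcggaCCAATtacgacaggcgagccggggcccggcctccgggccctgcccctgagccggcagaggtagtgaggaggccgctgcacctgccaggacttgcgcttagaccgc
Srebf2: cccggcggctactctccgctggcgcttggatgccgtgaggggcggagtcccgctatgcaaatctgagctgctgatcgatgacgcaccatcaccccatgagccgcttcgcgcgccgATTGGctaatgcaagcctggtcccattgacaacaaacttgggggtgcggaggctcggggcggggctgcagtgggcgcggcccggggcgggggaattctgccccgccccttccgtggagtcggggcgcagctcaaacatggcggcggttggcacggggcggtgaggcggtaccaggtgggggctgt
Ebp: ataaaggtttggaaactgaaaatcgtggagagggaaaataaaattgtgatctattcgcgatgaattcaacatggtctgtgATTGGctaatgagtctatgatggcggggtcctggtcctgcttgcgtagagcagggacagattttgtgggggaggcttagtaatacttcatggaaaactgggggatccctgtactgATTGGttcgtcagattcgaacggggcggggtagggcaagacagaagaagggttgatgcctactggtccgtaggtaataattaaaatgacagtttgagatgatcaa
All 4 windows hold CCAAT boxes, 4 in Hmgcs1, 3 in Msmo1, 1 in Srebf2 and 2 in Ebp, and over the genes with a window the box was in 4 of the 5 that fell with AM80 (not Abca1), 5 of 6 that rose (not Acat2) and 10 of 11 that did not pass the test (not Scap). Across all members, called or not, CCAAT was found in 19 of 28 windows (67.9%), beside 37.4% of 32851 RefSeq windows. The Sp1 box GGGCGG, not in capitals, was in 24 of 28 (85.7%) beside 35.7%. The exact letters TCACNCCAC were in 1 of the 28 windows (3.57%), that of Hmgcs1 at position −137 from the start, beside 1.24% of all windows. No match overlapped another motif, and a missing match says only that these letters are not in this window.

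The 7 genes of the mevalonate steps divided with AM80: against DMSO 2 rose (Acat2 and Fdps, lower under poly-A scaling), 2 fell (Hmgcs1 and Idi1) and 3 did not pass the test. Acat2, the cytosolic thiolase that joins 2 acetyl-CoA (chr17:12942890-12960747 in mm10, minus strand), measured 6.67, 6.61 and 6.88 on DMSO replicates 1 to 3. It measured 6.77, 6.39 and 6.58 with AM73 and 7.33, 7.30 and 7.02 with AM80. All 3 AM80 arrays lay above the other 6, and Acat2 rose against DMSO by 0.50 ± 0.14 (SE, limma's adjusted p = 0.0413).

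Hmgcs1, the HMG-CoA synthase of the next step (chr13:119690462-119708077, plus strand), measured 9.94, 9.70 and 9.47 with DMSO and 10.02, 9.96 and 9.90 with AM73. With AM80 it measured 8.43, 8.59 and 9.01, so that every AM80 array lay below all others. Hmgcs1 fell by 1.03 ± 0.17 on the log2 scale against DMSO (2.04-fold, limma's adjusted p = 0.00502). Idi1, the isomerase that makes dimethylallyl diphosphate (chr13:8885606-8892396, plus strand), measured 7.35, 6.90 and 6.74 with DMSO, 6.69, 6.90 and 7.01 with AM73, and 5.88, 5.57 and 6.32 with AM80. The AM80 arrays were again the lowest 3, and Idi1 fell against DMSO by 1.07 ± 0.21 (2.10-fold, adjusted p = 0.0102). Fdps, the farnesyl diphosphate synthase that takes the product of Idi1 (chr3:89093588-89101967, minus strand), measured 8.46, 8.70 and 8.91 with DMSO, 8.40, 8.48 and 8.30 with AM73, and 9.62, 9.29 and 9.01 with AM80. It rose by 0.62 ± 0.17 against DMSO (1.53-fold, adjusted p = 0.0376), opposite to its neighbour in the pathway, and was lower under poly-A scaling.

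The kinases Mvk and Pmvk and the decarboxylase Mvd between them, which carry mevalonate to isopentenyl diphosphate, did not pass the test against DMSO. Mvk measured 5.16, 5.63 and 5.88 with DMSO, 5.11, 5.27 and 5.70 with AM73, and 6.89, 6.19 and 5.81 with AM80. Its AM80 and DMSO arrays overlapped, with a difference of 0.74 (adjusted p = 0.127). Pmvk measured 7.56, 7.74 and 7.64 with DMSO, 7.55, 7.51 and 7.03 with AM73, and 8.74, 8.10 and 7.94 with AM80. Mvd measured 6.45, 6.72 and 6.78 with DMSO, 6.36, 6.78 and 6.26 with AM73, and 7.64, 7.39 and 6.89 with AM80. For Pmvk and Mvd all AM80 arrays lay above the others, and the differences from DMSO were 0.61 (adjusted p = 0.0910) and 0.66 (adjusted p = 0.0636). Replicate 1 was the highest AM80 array for Mvk, Pmvk, Mvd, Acat2 and Fdps, and the lowest for Hmgcs1.

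All 7 mevalonate genes differed between the compounds, 5 higher in AM80 cells (Acat2, Mvk, Pmvk, Mvd and Fdps, lower under poly-A scaling) and 2 lower (Hmgcs1 and Idi1). The differences AM80 minus AM73 were 0.64 ± 0.14 for Acat2 (limma's adjusted p = 0.0101), 0.94 ± 0.28 for Mvk (0.0439), 0.90 ± 0.21 for Pmvk (0.0145), 0.84 ± 0.21 for Mvd (0.0172) and 0.91 ± 0.17 for Fdps (0.00454). Hmgcs1 was lower by a difference of −1.28 ± 0.17 (0.00111) and Idi1 by −0.94 ± 0.21 (0.0112). In AM73 cells the 7 genes lay between −0.30 and 0.26 of DMSO.

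**Figure D2:**
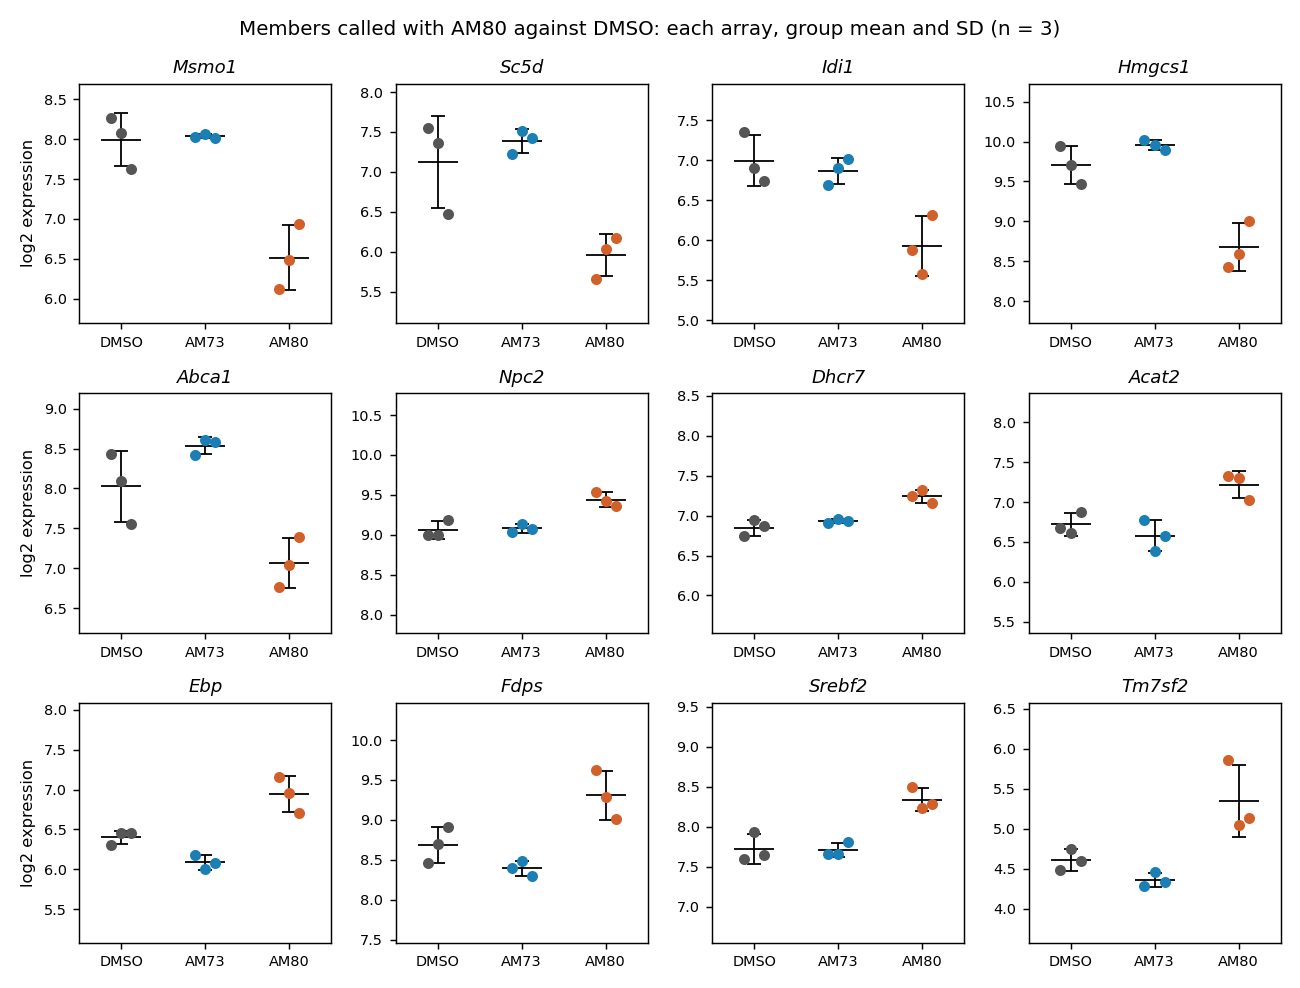
Log2 level of the 12 members called with AM80 against DMSO on each of the 9 arrays by group, with the group mean and SD (n = 3) as lines. The AM80 points of Hmgcs1, Idi1, Msmo1, Sc5d and Abca1 lie below all others. Those of Acat2, Fdps, Tm7sf2, Ebp, Dhcr7, Srebf2 and Npc2 lie above all others on this scale. Under poly-A scaling the differences of these higher genes from DMSO were below 0 and not called.

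The 3 genes that lead from farnesyl diphosphate to lanosterol did not pass the test against DMSO. Fdft1, the squalene synthase, measured 8.90, 9.07 and 8.99 with DMSO, 8.81, 8.86 and 8.65 with AM73, and 9.06, 9.32 and 9.22 with AM80. The AM80 arrays overlapped DMSO and lay above all AM73 arrays, with differences of 0.21 (adjusted p = 0.290) and 0.43 ± 0.11 (limma's adjusted p = 0.0245, lower under poly-A scaling). Sqle, the squalene epoxidase, ranged from 8.28 to 9.18 over the 9 arrays. All its AM73 arrays lay above all DMSO arrays, with a difference of 0.39 (adjusted p = 0.611), while AM80 differed from DMSO by −0.04, with a 95% interval from −0.37 to 0.30. Lss, the lanosterol synthase, ranged from 7.64 to 8.33 and differed by 0.35 between AM80 and DMSO (adjusted p = 0.118).

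Of the 8 genes that turn lanosterol into cholesterol, 3 rose with AM80 against DMSO (Tm7sf2, Ebp and Dhcr7, lower under poly-A scaling), 2 fell (Msmo1 and Sc5d) and 3 did not pass the test. Msmo1, the C4-methyl sterol oxidase (chr8:64718139-64733792, minus strand), had the largest difference of the 27 members. It measured 8.27, 8.08 and 7.63 with DMSO, 8.03, 8.06 and 8.01 with AM73, and 6.12, 6.49 and 6.94 with AM80. The AM80 arrays were all below the others, and Msmo1 fell by 1.48 ± 0.21 against DMSO (2.78-fold, limma's adjusted p = 0.00325). Sc5d, the sterol C5-desaturase (chr9:42254177-42264300, minus strand), measured 7.55, 7.36 and 6.47 with DMSO, 7.22, 7.51 and 7.42 with AM73, and 5.66, 6.04 and 6.17 with AM80. DMSO replicate 3 lay 0.98 below the mean of the other DMSO arrays and still above the AM80 arrays, and Sc5d fell by 1.17 ± 0.26 (2.25-fold, adjusted p = 0.0155).

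Tm7sf2, a sterol C14-reductase (chr19:6062821-6068373, minus strand), measured 4.48, 4.75 and 4.60 with DMSO, 4.28, 4.46 and 4.33 with AM73, and 5.86, 5.04 and 5.13 with AM80. It rose by 0.73 ± 0.20 against DMSO (1.66-fold, limma's adjusted p = 0.0354), with AM80 replicate 1 far above the other AM80 arrays. Ebp, the sterol isomerase (chrX:8185329-8193512, minus strand), measured 6.31, 6.45 and 6.45 with DMSO, 6.18, 6.00 and 6.08 with AM73, and 7.16, 6.96 and 6.71 with AM80. The groups did not overlap in any pairing, and Ebp rose by 0.54 ± 0.13 against DMSO (1.45-fold, adjusted p = 0.0218). Dhcr7, the 7-dehydrocholesterol reductase (chr7:143823145-143848410, plus strand), measured 6.74, 6.94 and 6.87 with DMSO, 6.91, 6.96 and 6.93 with AM73, and 7.25, 7.32 and 7.16 with AM80. It rose by 0.39 ± 0.10 against DMSO (1.31-fold, adjusted p = 0.0284). Sc5d and Dhcr7, which act one after the other, thus moved in opposite directions, and the 3 rises were lower under poly-A scaling.

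Cyp51, the lanosterol 14α-demethylase that opens this stretch, measured 8.91, 9.05 and 8.83 with DMSO, 8.94, 8.83 and 8.60 with AM73, and 8.76, 8.79 and 8.77 with AM80. Its AM80 arrays lay just below the DMSO arrays, with a difference of −0.16 (adjusted p = 0.490). Hsd17b7, a 3-ketosteroid reductase of the C4 demethylation, measured 6.73, 6.77 and 6.51 with DMSO, 6.87, 7.13 and 6.69 with AM73, and 6.12, 6.34 and 6.28 with AM80. All AM80 arrays of Hsd17b7 were below the others, and the difference from DMSO was −0.42 (adjusted p = 0.0721). Nsdhl, the dehydrogenase of the same demethylation, ranged from 8.62 to 9.30, with a difference of −0.27 between AM80 and DMSO (adjusted p = 0.266). The 3 genes that remove the C4 methyl groups, Msmo1, Nsdhl and Hsd17b7, all had negative differences, and of them Msmo1 passed the test against DMSO.

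Between the compounds, 2 of the 8 were higher in AM80 cells, Tm7sf2 by 0.99 ± 0.20 (limma's adjusted p = 0.00664) and Ebp by 0.86 ± 0.13 (0.00185), both lower under poly-A scaling. The 3 lower in AM80 cells had differences of −1.52 ± 0.21 for Msmo1 (0.00145), −1.43 ± 0.26 for Sc5d (0.0040) and −0.65 ± 0.14 for Hsd17b7 (0.00851).

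Of the 4 sterol-sensing genes, Srebf2 rose with AM80 and was lower under poly-A scaling, and the other 3 did not pass the test against DMSO. Srebf2, which encodes SREBP-2 (chr15:82147266-82205376, plus strand), measured 7.59, 7.93 and 7.64 with DMSO, 7.66, 7.66 and 7.81 with AM73, and 8.50, 8.23 and 8.29 with AM80. All AM80 arrays lay above the others, and Srebf2 rose by 0.62 ± 0.13 against DMSO (1.54-fold, limma's adjusted p = 0.0119) and was higher than with AM73 by 0.63 ± 0.13 (adjusted p = 0.00678). Scap, its escort, measured 6.17, 6.52 and 6.75 with DMSO, 6.35, 6.45 and 6.12 with AM73, and 7.28, 6.90 and 6.66 with AM80. Its AM80 and DMSO arrays overlapped (0.47, adjusted p = 0.157), and it was higher than with AM73 by 0.64 ± 0.19 (adjusted p = 0.0423, lower under poly-A scaling). Insig1, itself a target of SREBP-2, ranged from 10.18 to 10.76 and lay lower on all arrays of both compounds than on any DMSO array. Its difference from DMSO was −0.34 for AM73 (adjusted p = 0.541), and for AM80 it was −0.30 (adjusted p = 0.129). Insig2 ranged from 5.26 to 6.17 and overlapped between all groups.

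Of the 5 genes of sterol movement, storage and export, Npc2 rose with AM80 against DMSO and was lower under poly-A scaling, while Abca1 fell. Abca1, the pump that exports cholesterol and a target of LXR (chr4:53030787-53159895, minus strand), measured 8.43, 8.10 and 7.55 with DMSO, 8.42, 8.61 and 8.58 with AM73, and 6.77, 7.04 and 7.39 with AM80. The DMSO arrays spread over almost the whole distance between the compounds, and the AM80 arrays were the lowest 3. Abca1 fell by 0.96 ± 0.22 against DMSO (1.95-fold, limma's adjusted p = 0.0193) and differed between AM80 and AM73 by −1.47 ± 0.22 (adjusted p = 0.00187). Npc2, the lysosomal carrier of cholesterol (chr12:84754559-84773112, minus strand), measured 9.0, 9.0 and 9.19 with DMSO, 9.03, 9.14 and 9.07 with AM73, and 9.54, 9.42 and 9.36 with AM80. It rose by 0.38 ± 0.10 against DMSO (1.30-fold, adjusted p = 0.0394) and was higher than with AM73 by 0.36 ± 0.10 (adjusted p = 0.0368), both lower under poly-A scaling. Its membrane partner Npc1 ranged from 6.01 to 6.92, with a difference of −0.34 between AM80 and DMSO (adjusted p = 0.211).

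Stard4 and Soat1 differed between the compounds with DMSO in between or beside AM80. Stard4, a cytosolic carrier of sterols, measured 5.80, 5.66 and 5.58 with DMSO, 6.00, 6.01 and 6.26 with AM73, and 5.08, 5.30 and 5.39 with AM80. The 3 groups did not overlap, and the difference between AM80 and AM73 was −0.83 ± 0.13 (limma's adjusted p = 0.00185), while neither compound differed from DMSO past the test (−0.42 for AM80, adjusted p = 0.0519, and 0.41 for AM73, adjusted p = 0.469). Soat1, which esterifies cholesterol for storage, measured 5.66, 5.79 and 5.79 with DMSO, 6.42, 6.40 and 6.51 with AM73, and 5.15, 5.79 and 5.89 with AM80. All AM73 arrays lay above the other 6, and Soat1 was lower with AM80 than with AM73 by a difference of −0.83 ± 0.18 (adjusted p = 0.00855). Against DMSO its difference with AM73 was 0.70 ± 0.18, with a 95% interval from 0.30 to 1.09, the largest of any member with AM73 (adjusted p = 0.316).

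With AM73 no member passed limma's test against DMSO, beside 0.12% of all genes (0.104% higher and 0.0162% lower). An unadjusted p under 0.05 was found for 6 members and for 2363 of the 30860 genes. The methods' t-test and the authors' deposited q-values also called 0 members in that comparison. The 27 differences ran from −0.34 for Insig1 to 0.70 for Soat1, with a median of −0.01 beside −0.02 for all genes. The AM73 arrays lay above all DMSO arrays for 3 members (Sqle, Stard4 and Soat1) and below them for 5 (Pmvk, Fdft1, Tm7sf2, Ebp and Insig1), beside 12.6% of all genes, 5.71% above and 6.87% below. The uncoupling protein gene Ucp1, by contrast, rose with both compounds, by 2.16 for AM73 (limma's adjusted p = 0.0256) and, for AM80, by 1.93 (adjusted p = 0.0032).

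Each comparison was adjusted over genes on its own, and nothing adjusted across the comparisons. AM73 and AM80 are the only pair of compounds. Of the 8 members that did not pass the test between them, Cyp51 had a difference of −0.02 with a 95% interval from −0.28 to 0.24, and Insig1 had 0.04 with an interval from −0.22 to 0.30. For Sqle the interval ran from −0.76 to −0.09, for Lss from 0.10 to 0.68, for Nsdhl from −0.67 to −0.06, for Dhcr7 from 0.09 to 0.53, for Npc1 from −0.81 to −0.11 and for Insig2 from −0.83 to 0.24. A missed threshold does not show that the compounds act alike on these genes.

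**Figure D3:**
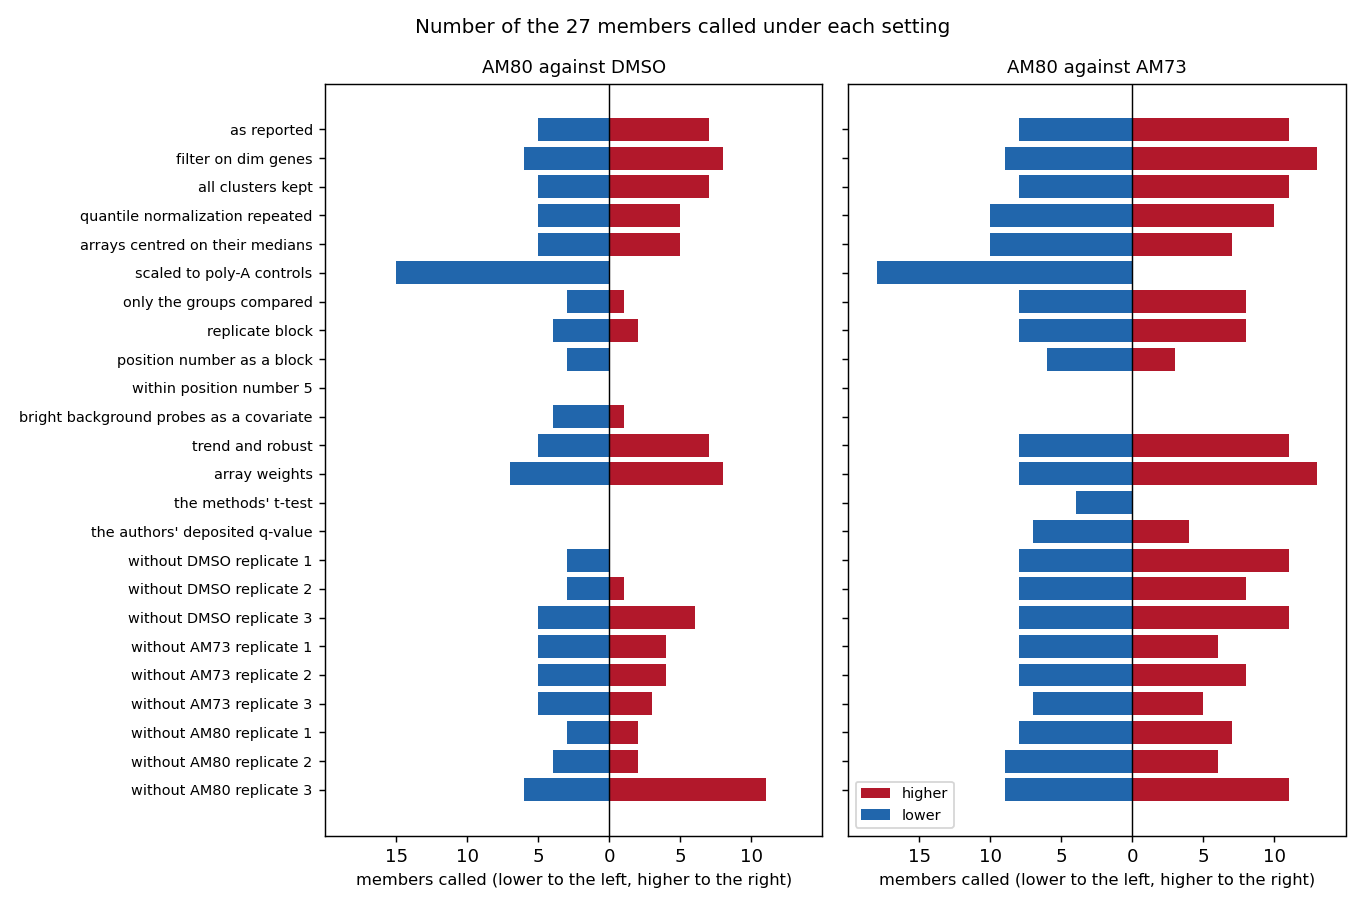
Number of the 27 members called under each processing setting, lower to the left and higher to the right, for AM80 against DMSO and against AM73, where the position number is the number in the array name. The count against DMSO is 12 as reported and 3 with the position number as a block, beside 13.9% and 4.67% of all genes. That against AM73 is 19 and 9, beside 19.1% and 11.4%, and no member is called higher under poly-A scaling.

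The falls of Hmgcs1, Idi1 and Msmo1 against DMSO held in each of the 9 fits that left out 1 array, with limma's adjusted p at most 0.0264, 0.0458 and 0.0196. The other 9 calls did not. Srebf2 missed the threshold without DMSO replicate 1 (adjusted p = 0.0571). Sc5d missed it without DMSO replicate 1 or 2 or AM80 replicate 1 (up to 0.0672). Without DMSO replicate 1 or 2 or AM80 replicate 1 or 2, so did Abca1 (up to 0.0771), Ebp (0.0925) and Dhcr7 (0.117). Acat2 was lost without those or AM73 replicate 3 (up to 0.142). Fdps and Npc2 were lost without those 4 or any AM73 array (up to 0.152 and 0.142), and Tm7sf2 without any DMSO or AM73 array (up to 0.136). The count was lowest without DMSO replicate 1, with 3 members beside 5.64% of all genes, and highest without AM80 replicate 3, with 17 beside 16.9%. It was 4 without DMSO replicate 2 (7.06% of all genes) and 8 without AM73 replicate 3 (11.8%). Without AM80 replicate 1 it was 5 (8.08%), and without AM80 replicate 2 it was 6 (8.04%).

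With the array number 5 or 7 as a term, 3 members were called against DMSO, beside 4.67% of all genes. The differences were −1.03 for Hmgcs1 (limma's adjusted p = 0.0387), −1.53 for Msmo1 (0.0274) and −1.35 for Sc5d (0.0492). The other 9 had an adjusted p between 0.0554 and 0.201. Within number 5 there is a single DMSO array, so only the differences are given. The differences there were −1.02 for Hmgcs1, −0.98 for Idi1, −1.56 for Msmo1, −1.40 for Sc5d and −1.03 for Abca1. For the members that rose they were 0.61 for Acat2, 0.61 for Fdps, 0.59 for Tm7sf2, 0.49 for Ebp, 0.30 for Dhcr7, 0.41 for Srebf2 and 0.44 for Npc2. All 12 kept their direction within number 5, with 7 of them higher on the deposited scale. That was fixed beforehand, since their AM80 arrays did not overlap any DMSO array, so it does not bear on the array number.

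Between the compounds, 12 of the 19 calls held in each fit that left out 1 array. Pmvk and Idi1 were lost without AM73 replicate 3 (limma's adjusted p = 0.0615 and 0.0511). Leaving out replicate 1 or 3 of AM73, or replicate 1 or 2 of AM80, ended the call of Mvd (at most 0.0748). The call of Fdft1 ended without replicate 1 or 3 of AM73 and without replicate 2 or 3 of AM80 (at most 0.0853). Mvk, Scap and Npc2 were lost without DMSO replicate 2, any AM73 array, or replicate 1 or 2 of AM80 (reaching 0.138, 0.150 and 0.105). With the array number as a term 9 were called, beside 11.4% of all genes. Acat2, Fdps and Ebp were called higher, each lower under poly-A scaling, and Hmgcs1, Msmo1, Hsd17b7, Sc5d, Stard4 and Abca1 lower. The adjusted p of the other 10 lay between 0.0501 and 0.201. Within number 5, which has a single AM73 array, the higher members had differences from 0.30 for Npc2 to 1.03 for Mvk on the deposited scale. The lower ones ran from −1.55 for Sc5d to −0.75 for Stard4. All 19 kept their direction, which was fixed beforehand, since their AM80 and AM73 arrays did not overlap. With the level of the brightest background probes as a covariate none of the 19 passed, at limma's adjusted p between 0.0955 and 0.728, and none reversed. With this covariate 0 of all genes passed, so the loss of calls was not particular to the members. The differences became 0.28 for Scap, 0.48 for Pmvk, 0.39 for Acat2, 0.55 for Mvd, −0.89 for Sc5d and −0.62 for Idi1, each over 1.5 times smaller than without it.

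Genes that work around the pathway also divided. Of 51 genes in 7 related lists, 8 rose with AM80 against DMSO and 9 fell, or 33.3% beside 13.9% of all genes, and none passed the test with AM73. Most of the 51 are also brighter than most genes. Among the 18508 genes above the 40th percentile of mean level 26.7% were called, closer to the 33.3% than the share of all genes. In the list for SREBP processing and sterol-driven degradation (8 genes), 1 rose and 3 fell. The 2 proteases that cut SREBP in turn moved apart: Mbtps1, the site-1 protease, rose by 0.45 ± 0.09 (limma's adjusted p = 0.0128), and Mbtps2, the site-2 protease, fell by 1.43 ± 0.24 (adjusted p = 0.00526). Erlin1 and the ubiquitin ligase gene Rnf139 fell by 1.22 ± 0.23 and 0.89 ± 0.24. The LXR list (6 genes) had 2 rises, Nr1h2, which encodes LXRβ, by 0.93 ± 0.17 (adjusted p = 0.00755), and the exporter Abcg1 by 0.48 ± 0.13 (0.0335), while Abca1, also a target of LXR, fell. Under poly-A scaling Mbtps1 and Abcg1 were lower, and Nr1h2 differed by 0.09 (adjusted p = 0.771), so that its call was lost.

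In the isoprenoid branch (11 genes) 2 fell and 9 did not pass the test: Ggps1, which makes geranylgeranyl diphosphate, fell by 1.31 ± 0.25 and Pggt1b, a subunit of the enzyme that attaches it to proteins, fell by 1.45 ± 0.26 (limma's adjusted p = 0.0095 and 0.0074). Of 6 lipoprotein uptake genes 1 rose and 2 fell. Cd36, a scavenger receptor and fatty acid carrier, fell by 1.43 ± 0.19 (adjusted p = 0.00256) and the receptor Vldlr fell by 0.82 ± 0.22. The HDL receptor Scarb1 rose by 0.51 ± 0.12. Of 12 genes of cholesterol transfer and ester breakdown, Osbpl9 fell by 1.03 ± 0.16, Stard3 and Tmem97 rose by 0.49 ± 0.12 and 0.44 ± 0.11, and 9 did not pass. Of 4 oxysterol genes the sterol 27-hydroxylase Cyp27a1 rose by 0.70 ± 0.17. Of the 4 electron donors Por, the P450 reductase that serves Cyp51 and Sqle, rose by 0.61 ± 0.14 and Cyb5b fell by 0.97 ± 0.14. The rises of Scarb1, Stard3, Tmem97, Cyp27a1 and Por were lower under poly-A scaling.

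Mbtps2, Erlin1, Nr1h2, Ggps1, Pggt1b, Osbpl9, Cd36 and Cyb5b kept their call in each fit that left out 1 array. The other 9 did not, with limma's adjusted p rising to 0.0542 for Mbtps1 without DMSO replicate 1. Without DMSO replicate 1 or AM80 replicate 1 or 2 it rose to 0.0927 for Cyp27a1, and Stard3 was lost without these or DMSO replicate 3 (up to 0.0971). Without DMSO replicate 1 or 2 or AM80 replicate 1 or 2 it rose to 0.0911 for Scarb1, 0.0806 for Por and 0.106 for Tmem97, and Abcg1 was lost without those or AM73 replicate 2 (up to 0.136). Rnf139 and Vldlr were lost without those 4 or any AM73 array (up to 0.141 and 0.142). With the array number as a term 6 of the 17 calls held, those of Mbtps2 (limma's adjusted p = 0.033), Ggps1 (0.0406), Pggt1b (0.0477), Osbpl9 (0.0284), Cd36 (0.0265) and Cyb5b (0.0284). The other 11 had an adjusted p from 0.0532 for Nr1h2 and 0.0568 for Erlin1 to 0.148 for Stard3, with 0.0837 for Mbtps1. Within number 5 all kept their direction, with differences such as −1.66 for Mbtps2, −1.32 for Erlin1, 0.80 for Nr1h2 and −1.45 for Cd36. For each but Rnf139 that was fixed beforehand, since its AM80 and DMSO arrays did not overlap. Between the compounds 11 of the 51 were higher and 12 lower in AM80 cells, or 45.1% beside 19.1% of all genes. Among genes above the 40th percentile of mean level the share was 34.9%.

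**Figure D4:**
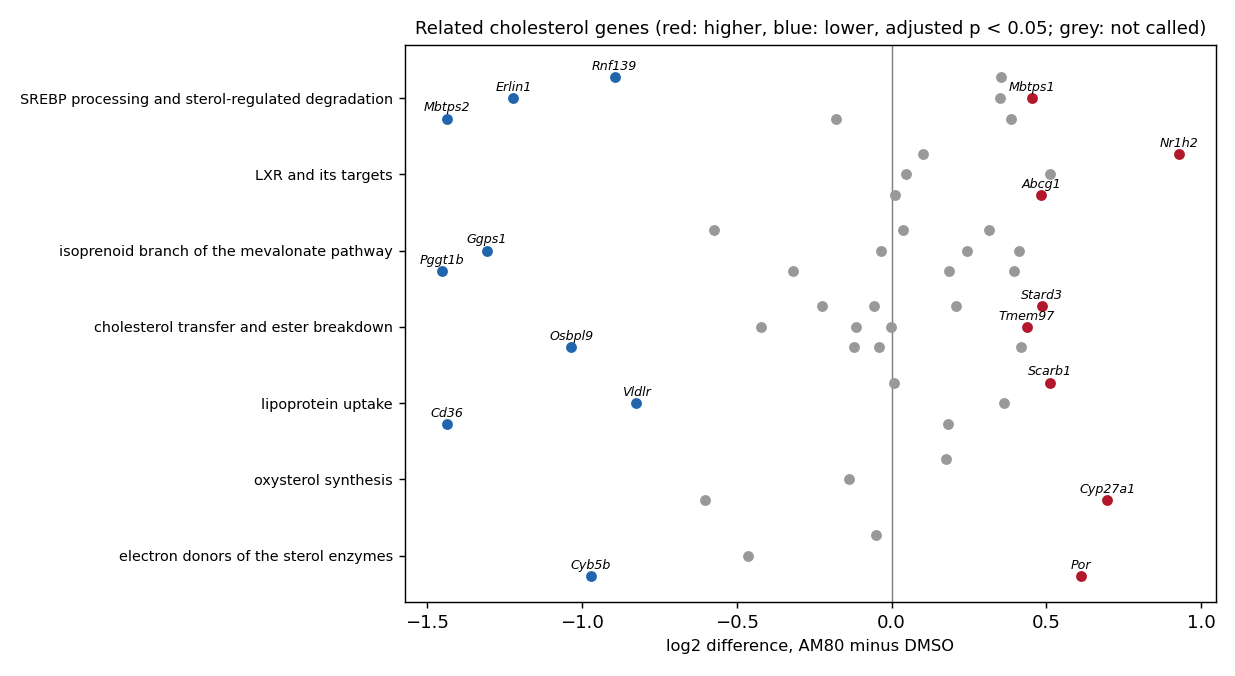
Log2 differences between AM80 and DMSO of the 51 related genes by list, red or blue where limma's adjusted p was under 0.05. There are 8 red and 9 blue points, and of the 8 red ones none is called under poly-A scaling, where Nr1h2 is at 0.09 and the other 7 are below 0.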

How the data were processed

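The deposited values of 9 mouse whole-transcript arrays, 3 a group, were used. The deposited log2 values come, per the file headers, from RMA background correction followed by quantile normalization and summarization by median polish. Annotation was NetAffx build 35 on mm10. The software was Affymetrix Expression Console 1.41, per the submitters' processing notes, and the input was 100 ng of total RNA per the labels. The deposited comparison table also holds p-value and q-value columns of the authors, and how the q-value was made is not given in the sources used here. No pair of arrays was identical.

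Of 41345 features, 32202 gene features carried a symbol, and keeping the cluster with the highest mean for each symbol left 30860 genes. These were fitted with lmFit and eBayes of limma 3.58.1 in R 4.3.3 (data.table in version 1.17.8), with Benjamini-Hochberg adjustment over all genes and a threshold of 0.05. The fit was checked on simulated data. Members and lists were chosen with earlier results of these data known, and 1 gene of the related lists is not reported here. All members are accounted for; values on every array are given for members called in a comparison and for the first of each role, and up to 4 called genes are named per related list, by smallest adjusted p. Replicate numbers do not pair the arrays: deviations of same-numbered arrays correlated between −0.298 and 0.068. Alternatives were other filters, scalings and fits, the replicate block, array number, background covariate, the methods' t-test and leaving out each array. Promoters came from the RefSeq table of GRCm38.p6 and were searched for exact letters.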

Additional observations from a re-analysis of the deposited data

How the results depend on the processing

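Against DMSO, 12 members were called with AM80, beside 13.9% of all genes. With only these groups in the fit 4 were called (beside 6.76% of all genes), with the replicate block 6 (9.72%) and with the array number as a block 3 (4.67%). With the level of bright background probes as a covariate 5 were called (7.79%). The methods' t-test called 0 after adjustment (0.013%), and 11 members and 5292 of all genes unadjusted, that is, at p under 0.05. The authors' deposited q-value called 0 (0.0162%). Leaving out each array gave 3 to 17 members (5.64% to 16.9%). Number 5 holds a single DMSO array and a single AM73 array, so no count is given for it in any comparison. Between AM80 and AM73, 19 members were called, beside 19.1% of all genes. The array number as a block gave 9 (11.4%). With the background covariate 0 members and 0 of all genes were called, so that loss was not particular to the members. The methods' t-test called 4 (5.86%), and 16 members and 7012 of all genes unadjusted. The deposited q-value called 11 (11.3%), and leaving out each array gave 12 to 20 (13.5% to 20.9%). The F-test called 17 members, beside 16.9% of all genes. It called 8 with the array number as a block, 2 with the covariate and 10 to 17 with each array left out. The share of all genes is not given for these settings of the F-test. The 6 bright background probe sets averaged 5.91 ± 0.21 on the AM80 arrays, 5.58 ± 0.37 on the DMSO arrays and 5.04 ± 0.49 on the AM73 arrays (SD, n = 3). The replicate block ended the calls against DMSO of Abca1 (limma's adjusted p = 0.0507), Dhcr7 (0.0617), Tm7sf2 (0.0707), Acat2 (0.0773), Fdps (0.082) and Npc2 (0.0944). The labels give these arrays only a shared number. Of the 9 arrays 0 correlated best with its own number, which with 3 arrays a group cannot settle whether they pair. Apart from the fit within number 5, AM73 against DMSO gave 0 members under every alternative run. Scaling to the poly-A controls took the rises of the members and related genes against DMSO below 0 except that of Nr1h2, which came to 0.09 and lost its call. It left 0 members called higher and 15 lower against DMSO, and 0 higher and 18 lower between the compounds. The members that rose are not among the 15. Of those higher than with AM73, only Fdft1 and Npc2 are among the 18. Against DMSO the differences became −0.22 for Fdps, −0.11 for Tm7sf2, −0.30 for Ebp, −0.45 for Dhcr7, −0.22 for Srebf2, −0.34 for Acat2 and −0.46 for Npc2, and for the related genes −0.39 for Mbtps1, −0.36 for Abcg1, −0.35 for Stard3, −0.40 for Tmem97, −0.33 for Scarb1, −0.14 for Cyp27a1 and −0.23 for Por. Between the compounds they became −0.19 for Mvk, −0.23 for Pmvk, −0.29 for Mvd, −0.21 for Fdps, −0.70 for Fdft1, −0.14 for Tm7sf2, −0.27 for Ebp, −0.50 for Srebf2, −0.49 for Scap, −0.49 for Acat2 and −0.77 for Npc2. Of 1104 values of single genes under the alternatives, 732 kept their direction and side of the threshold, 347 lost the threshold and 25 reversed. The cause was not tested.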
